A study of Rattus norvegicus with 6 samples.

Results

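The intercalated disc joins heart muscle cells end to end, and its junction genes were followed here together with Ncam1, the gene of the neural cell adhesion molecule. The 10 symbols were listed by name: the gap junction gene Gja1, the desmosome genes Dsp, Pkp2, Jup, Dsg2 and Dsc2, the adherens junction genes Cdh2 and Ctnna3, the scaffold gene Tjp1, and Ncam1. Of these, 7 were found among the 17487 symbols of the count table, and Dsp, Dsg2 and Ctnna3 are not analysed here. All 7 passed the filter on low counts, which left 9205 symbols. Ncam1 was put on the list because it was higher in every doxorubicin heart, that is, selected on its level in these same libraries, so its difference between the groups is a description and carries no test. The 6 junction genes were listed for their place in the disc, but with results of this comparison known.

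The libraries came from heart tissue of 6 adult male Wistar rats, an outbred laboratory strain, with 1 library per animal. The 3 doxorubicin rats had been given doxorubicin hydrochloride, an anthracycline chemotherapy drug that damages the heart, by tail vein at 3.75 mg/kg weekly for 4 weeks. The 3 control rats had been given the vehicle, 0.9% sodium chloride, in the same way. The labels do not give the heart region, the time of collection or any measure of heart function.

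In the disc, desmosomes and adherens junctions hold neighbouring cells together and gap junctions let current pass between them. Desmosomal cadherins such as that encoded by Dsc2 bind across the gap between cells, plakoglobin (Jup) and plakophilin (Pkp2) link their tails to the desmin filaments, and N-cadherin (Cdh2) ties to actin through the catenins. Inherited loss of desmosomal proteins, plakophilin and plakoglobin among them, is a known cause of arrhythmogenic cardiomyopathy. Ncam1 encodes an immunoglobulin-type adhesion molecule of nerve, developing heart and regenerating or denervated muscle, and in humans it also marks natural killer cells.

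Ncam1, which was selected on this difference, stood at 4.12 ± 2.27 CPM with vehicle and 20.3 ± 4.67 CPM with doxorubicin (SD, n = 3 each), a ratio of means of 4.92. CPM are counts scaled to a common library total of 1000000 after correction by trimmed mean of M-values (TMM). Cdh2 and Pkp2 were higher in each doxorubicin heart than in each control heart, and Jup was lower in each, with ratios of means of 1.40, 1.27 and 0.80. Gja1, Dsc2 and Tjp1 overlapped between the groups. With edgeR's quasi-likelihood test 0 of the 6 junction genes passed a Benjamini-Hochberg adjusted p of 0.05 over all 9205 symbols, of which 0.0543% passed. Their adjusted p ran from 0.548 to 0.894. Only Cdh2 had an unadjusted p under 0.05 (0.0309), and DESeq2 and limma voom also called 0 of the 6.

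**Figure D1:**
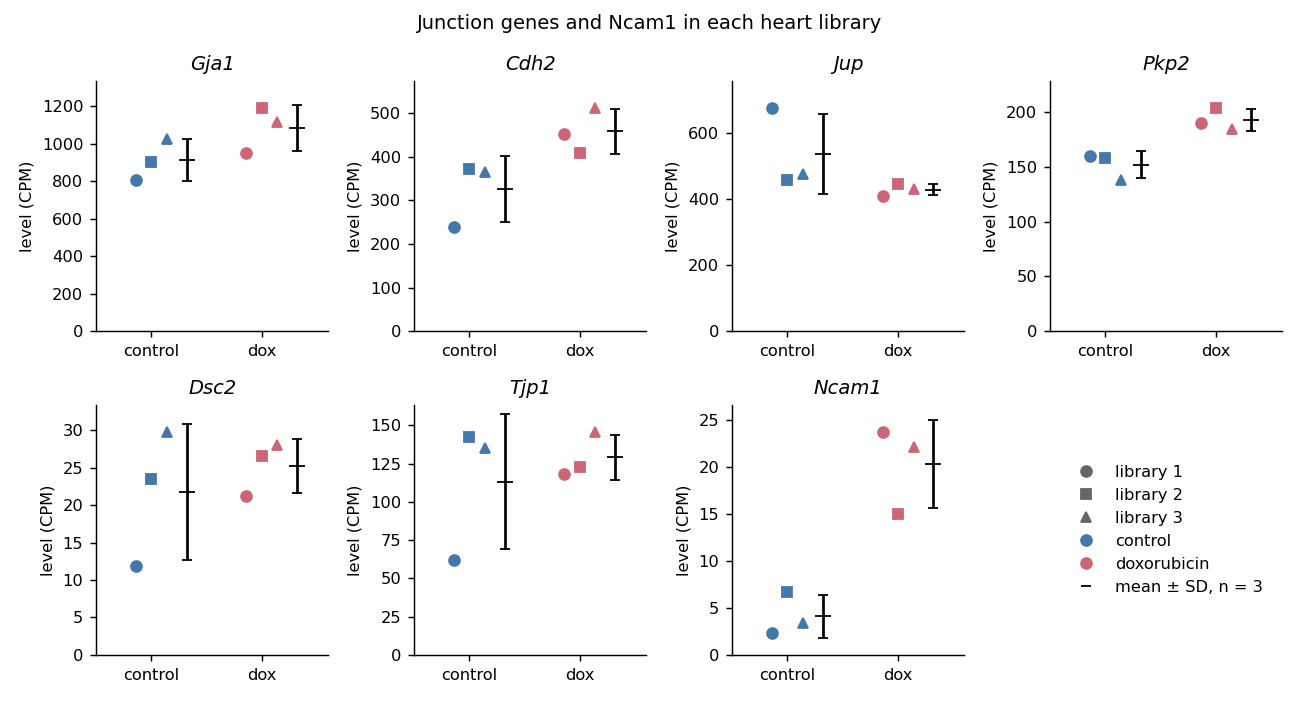
Level in CPM (TMM-scaled) of the 7 genes in each library, 1 panel per gene with its own linear axis from 0. Symbols mark library numbers, which pair no animals, and bars give the mean ± SD (n = 3). Ncam1, Cdh2 and Pkp2 lie higher and Jup lower in all 3 doxorubicin libraries, and control library 1 lies apart for Jup, Dsc2, Tjp1 and Cdh2.

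Total counts ran from 2219685 to 3508282 per library, so 3 counts, taken as the smallest detectable level, stood at 0.855 to 1.35 CPM. Each of the 7 genes stood on 1 row of the table. Cardiomyocyte markers were abundant in every library: 12 of the 13 listed were in the table, with a summed level of 126247 to 150599.8 CPM with vehicle and 101188 to 118864 CPM with doxorubicin, groups that did not overlap. Of the 12, all tested, 4 were lower and 0 higher in every doxorubicin heart, beside 7.06% and 6.39% of all tested symbols. The log2 fold change, doxorubicin against control, was -1.62 (SE 0.25) for Ryr2, which passed in edgeR (adjusted p 0.0440). It was -0.11 (SE 0.17) for Tnnt2 and -0.02 (SE 0.19) for Myl2. In whole tissue, such a sum cannot tell apart fewer cells of a type, less RNA per cell and a change in particular genes. The atrial light chain genes Myl7 and Myl4 set control library 1 apart. Myl7 had 429 counts there, 10 in each of the other control libraries and 7 to 20 in doxorubicin libraries. Myl4 had 179 counts there, 18 and 23 in control libraries 2 and 3 and 17 to 81 in doxorubicin libraries. The atrial marker Dkk3 did not set it apart, at 131, 123 and 120 CPM in control libraries 1, 2 and 3. Together the 7 atrial markers summed to 332 to 846 CPM with vehicle and 447 to 3466 CPM with doxorubicin. Most of the highest sum was Nppa, a natriuretic peptide gene, at 3252 CPM in doxorubicin library 1. The counts of Sln, an atrial calcium pump regulator gene, were 60 in control library 1, 0 in library 2 and 59 in library 3, and 0 to 6 after doxorubicin. Each difference of a junction gene is therefore also given without control library 1. Where 3 values are given for a group, they are those of libraries 1, 2 and 3 in that order, and vehicle means the control rats.

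Gja1 encodes the main connexin of ventricular gap junctions, the channels that carry the electrical impulse from cell to cell. Its level was 808, 903 and 1028 CPM with vehicle against 951, 1192 and 1116 CPM with doxorubicin. Doxorubicin library 1 lay below control library 3, so the groups overlapped. The log2 fold change, doxorubicin against control in all that follows, was 0.25 (SE 0.18), and 0.17 (SE 0.16) without control library 1.

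Pkp2 encodes plakophilin of the cardiac desmosome, an armadillo-repeat protein that also holds gap junction and sodium channel proteins at the disc. Its level was 159.6, 158 and 138 CPM with vehicle against 190.0, 204 and 185 CPM with doxorubicin. The groups did not overlap, and both were narrow, with a coefficient of variation of 8.06% in control and 5.14% in doxorubicin hearts. This gave a log2 fold change of 0.35 (SE 0.17), and of 0.39 (SE 0.16) without control library 1.

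Jup encodes plakoglobin, shared by desmosomes and adherens junctions, and was the only junction gene with a lower mean after doxorubicin. It stood at 677, 458 and 475 CPM with vehicle against 411, 446 and 432 CPM with doxorubicin. Control library 1 was the highest by far, and the gap between the groups was narrow, from 446 to 458 CPM. The log2 fold change was -0.32 (SE 0.19) and -0.11 (SE 0.14) without control library 1, so most of the Jup difference rested on that library.

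Dsc2 encodes a desmosomal cadherin and was read from 31 to 105 counts per library. Its level was 11.8, 23.6 and 29.8 CPM with vehicle against 21.2, 26.5 and 28.0 CPM with doxorubicin. All doxorubicin values lay within the range of the controls, of which library 1 was lowest by far. The log2 fold change of 0.21 (SE 0.31) turned to -0.08 (SE 0.25) without control library 1.

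The sequences upstream of Gja1 and Jup are shown because these genes had the most counts among the 7 and their means differed in opposite directions. RefSeq's promoter table matched 4 of the 7 genes (Gja1, Jup, Dsc2 and Tjp1). The printed stretches are the 250 bases before the annotated start in RefSeq's GRCr8, 5′ to 3′ on the gene's own strand, with motif matches in capitals. Gja1 lies on the plus strand at chr20:36302314-36302563 and Jup on the minus strand at chr10:85827430-85827679.
Gja1: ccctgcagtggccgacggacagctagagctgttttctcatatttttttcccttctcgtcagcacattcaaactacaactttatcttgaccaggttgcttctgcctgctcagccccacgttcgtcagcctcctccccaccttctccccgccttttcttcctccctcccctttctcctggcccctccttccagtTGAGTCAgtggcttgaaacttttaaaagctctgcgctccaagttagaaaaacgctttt
Jup: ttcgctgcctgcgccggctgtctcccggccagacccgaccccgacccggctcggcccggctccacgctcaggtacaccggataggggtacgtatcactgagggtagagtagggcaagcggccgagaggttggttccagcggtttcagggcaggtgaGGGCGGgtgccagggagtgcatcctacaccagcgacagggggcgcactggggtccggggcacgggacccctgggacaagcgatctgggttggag
The motifs searched, on both strands and with no overlap between their matches here, were the AP-1 motif TGANTCA, the GC box GGGCGG, the CCAAT box CCAAT and the TATA box TATAAA. Gja1 held 1 AP-1 motif, starting 58 bases before the start, and Jup held 1 GC box, starting 94 bases before it. The other motifs were not found in these windows. Of 27457 such windows, 6.36% held the AP-1 motif, 32.4% the GC box, 34.3% the CCAAT box and 13.1% the TATA box. A match is a description of the letters and says nothing of binding.

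Cdh2 encodes N-cadherin, the cadherin of the adherens junction and the anchor on which the other disc junctions assemble. It stood at 240.2, 373 and 366 CPM with vehicle against 454, 409.7 and 513 CPM with doxorubicin. Every doxorubicin value lay above every control value, and control library 1 was the lowest of all. Its log2 fold change was 0.49 (SE 0.20), and 0.32 (SE 0.16) without control library 1.

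Tjp1 encodes a zonula occludens scaffold protein that binds the connexin tail at the rim of gap junctions. It stood at 62.2, 143 and 135 CPM with vehicle against 118, 123 and 146 CPM with doxorubicin. Only doxorubicin library 3 lay above the range of the controls, and control library 1 was again lowest by far. A log2 fold change of 0.19 (SE 0.26) turned to -0.10 (SE 0.17) without that library.

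**Figure D2:**
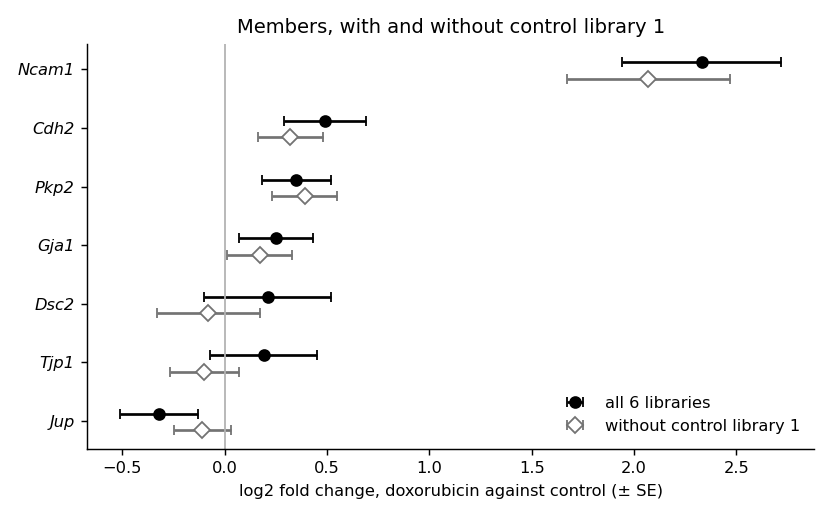
Log2 fold change, doxorubicin against control, with its SE for each gene from edgeR. Filled circles use all 6 libraries and open diamonds leave out control library 1. Ncam1 stands at 2.33 and 2.07, while Dsc2 and Tjp1 cross 0.

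Control library 1 departed from the other controls in different directions for different junction genes. Against the mean of control libraries 2 and 3, it was lower by a log2 ratio of -1.17 for Dsc2, -1.16 for Tjp1, -0.62 for Cdh2 and -0.26 for Gja1. It was higher by 0.11 for Pkp2 and 0.54 for Jup. The desmin gene Des and the ventricular light chain gene Myl2 were higher there too, by 0.48 and 0.47, and vinculin (Vcl), an actin linker of adherens junctions, was lower, at -0.72. Red blood cell markers summed to 7162 CPM in control library 1, against 1971 and 2500 CPM in control libraries 2 and 3. With doxorubicin they summed to 688 to 2612 CPM. The TMM factor of control library 1 was 0.892, against 1.007 to 1.045 for all other libraries. The part of tissue sampling or RNA quality in the departure of control library 1 was not tested.

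Ratios of counts within a library do not depend on how libraries are scaled, and the length of a gene cancels when the same ratio is compared between libraries. Per 100 Cdh2 counts there were 282, 123 and 129.7 Jup counts with vehicle against 90.5, 109 and 84.3 with doxorubicin. Per 100 Jup counts there were 23.6, 34.5 and 29.0 Pkp2 counts with vehicle against 46.3, 45.7 and 42.7 with doxorubicin. Both ratios separated the groups, also between the doxorubicin libraries and control libraries 2 and 3. This follows from the levels given above, with Jup lower and Cdh2 and Pkp2 higher in every doxorubicin heart. Gja1 per 100 Cdh2 counts overlapped, at 286 ± 47.4 with vehicle and 239.5 ± 44.7 with doxorubicin (SD, n = 3). Set against the cardiac troponin T gene Tnnt2, whose level was slightly lower in every doxorubicin heart (log2 fold change -0.11, SE 0.17), Pkp2 was 0.861 ± 0.0775 per 100 Tnnt2 counts with vehicle and 1.18 ± 0.0678 with doxorubicin. Cdh2 was 1.85 ± 0.396 and 2.82 ± 0.451 on the same scale, and neither ratio overlapped between the groups. That too follows from the levels, since Pkp2 and Cdh2 were higher and Tnnt2 lower in every doxorubicin heart.

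**Figure D3:**
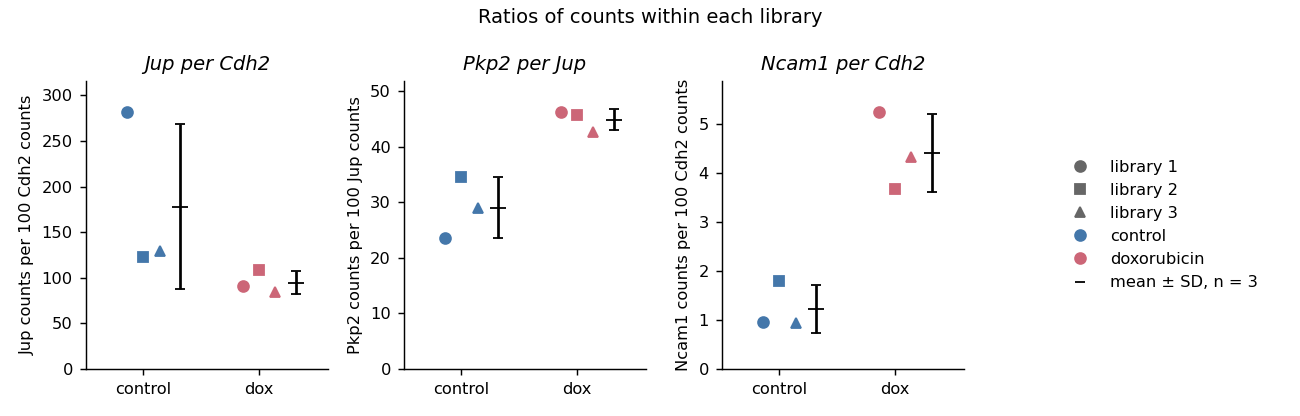
Counts of a gene per 100 counts of another in each library, on linear axes from 0, with the mean ± SD (n = 3). Jup per Cdh2 lies lower and Pkp2 per Jup and Ncam1 per Cdh2 lie higher in all 3 doxorubicin libraries.

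Doxorubicin and control libraries were fully separated for 4 of the 7 genes, 3 higher and 1 lower, beside 13.4% of all tested symbols (6.39% higher and 7.06% lower). Nothing is read from this share, since the genes were listed with the comparison known. The median log2 fold change of the 6 junction genes was 0.23, beside 0.02 over all tested symbols. Without control library 1 these medians were 0.05 and 0.02.

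Ncam1 was read from few reads with vehicle, 6, 15 and 12 counts, against 74, 48 and 75 counts with doxorubicin. These are 2.29, 6.66 and 3.41 CPM and 23.8, 14.98 and 22.1 CPM. Counting error alone gave a 95% Poisson interval of 0.841 to 4.99 CPM for control library 1 and of 18.7 to 29.8 CPM for doxorubicin library 1 (exact), which covers no spread between animals. All doxorubicin libraries lay above all control libraries, as the choice of the gene fixed, and every library was above the detectable level. The log2 fold change was 2.33 (SE 0.39), and it ran from 2.07 without control library 1 to 2.80 without control library 2. Per 100 Cdh2 counts there were 0.954, 1.79 and 0.930 Ncam1 counts with vehicle against 5.24, 3.66 and 4.31 with doxorubicin.

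Other cell types can carry Ncam1, and their markers were read beside it. Of the 18 markers of nerve and glia 14 had counts in some library, while the synaptic gene Snap25 had 0 counts in all libraries, which allows up to 3 counts. Their summed level was 93.2 to 104 CPM with vehicle and 88.7 to 120.4 CPM with doxorubicin, and the log2 fold change of Sox10, the glial transcription factor gene, was 0.01 (SE 0.43). Of the 6 tested markers of nerve and glia, 1 was higher in every doxorubicin heart, beside 6.39% of all tested symbols. The sum does not show such a rise of a single marker, and 0 of the 6 passed in edgeR. The 13 markers of natural killer and T cells, 4 of them tested, summed to 55.1 to 68.7 CPM with vehicle and 47.8 to 60.2 CPM with doxorubicin. Both summed levels overlapped between the groups. For the 15 markers of skeletal and immature muscle the summed level did separate. It was 606 to 1034 CPM with vehicle and 1151 to 2657 CPM with doxorubicin. Of the 15, only 2 were tested and 5 had 0 counts in all libraries. Most of that sum was Acta1, the skeletal actin gene that the fetal heart also uses, at 600.3 to 1026 CPM with vehicle and 1137 to 2647 CPM with doxorubicin (log2 fold change 1.05, SE 0.29, edgeR adjusted p 0.261). Because Acta1 outweighed the rest, the sum does not show whether the other markers of this list separated. Read singly, Tnni1, the other tested marker, did separate. It had 5, 4 and 10 counts with vehicle against 18, 17 and 21 counts with doxorubicin (log2 fold change 1.35, SE 0.45, edgeR adjusted p 0.396). The satellite cell and myoblast genes Pax7 and Myod1 had 0 counts in all libraries. Macrophage markers (8 of 8 in the table) summed to 226 to 232.5 CPM with vehicle and 281 to 451 CPM with doxorubicin. The part of any of these marker lists in the Ncam1 difference was not tested.

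The 5 tested symbols with profiles nearest to Ncam1 were taken among those with a mean of at least 5 CPM, by the mean absolute difference in log2 CPM over the 6 libraries after centring each gene on its mean. They were Vash2, a vasohibin gene, at 0.38, Ankrd23, a stretch-responsive ankyrin repeat gene of the sarcomere, at 0.40, and Thbs1, the matrix glycoprotein thrombospondin gene, also at 0.40. Sfrp1, a secreted Wnt inhibitor gene, followed at 0.42 and Tgm1, a transglutaminase gene, at 0.44. Ankrd23 had 51.9, 52.4 and 33.5 CPM with vehicle against 195, 92.4 and 125 CPM with doxorubicin. Thbs1 had 3.06, 5.33 and 3.98 CPM with vehicle against 30.8, 8.74 and 15.3 CPM with doxorubicin. All 5, like Ncam1, had their lowest doxorubicin value in library 2. Their separation between the groups follows from choosing them by likeness to Ncam1, and that choice also favours the shared low value in library 2. Both are given with no test.

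**Figure D4:**
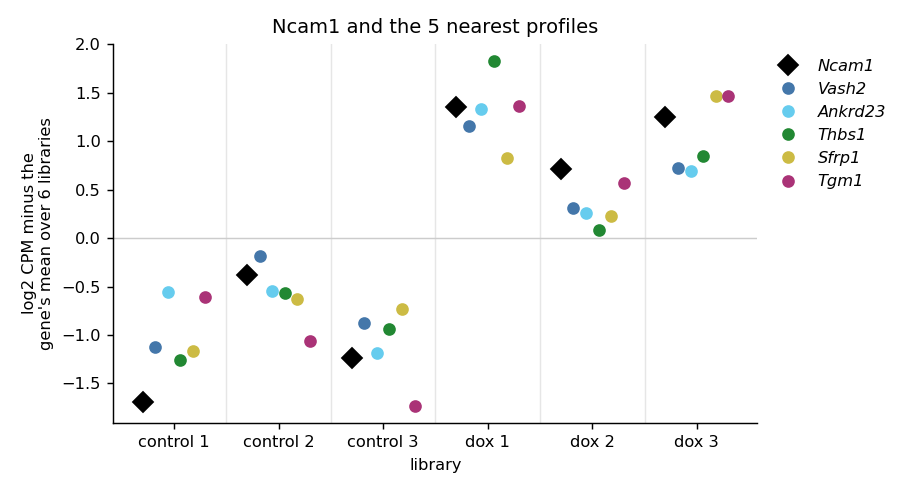
Log2 CPM of Ncam1 and the 5 genes of nearest profile in each library, minus each gene's mean over the 6 libraries. Points within a library are set side by side, and all 6 genes lie below 0 in the control and above 0 in the doxorubicin libraries.

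The other genes of these structures were read from 6 lists of 154 symbols, of which 142 were in the table and 87 passed the filter on low counts. In edgeR's test 0 of the 87 passed the adjusted threshold upward and 1 downward, beside 0.0217% and 0.0326% of all symbols. DESeq2, run without that filter, called 3 of the list genes (Enah, Sorbs2 and Scn4b), and limma voom called 0. At an unadjusted p under 0.05 there were 13 (10 higher and 3 lower), 14.9% beside 8.1% of all tested symbols. The median log2 fold change was 0.03, beside 0.02 over all tested symbols. The libraries of both groups were fully separated for 18 of the 87, which is 20.7% beside 13.4%. The lists were drawn up by function, but with earlier results of these data known. Nothing is therefore read from these shares or from those of the single lists below.

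Among the other gap junction genes 6 of 13 were tested, 0 passed in edgeR and 0 had an unadjusted p under 0.05, with a median log2 fold change of -0.18. Gja4, a connexin gene of arterial endothelium, was lowest, at -0.55 (SE 0.30), and Panx2, a pannexin gene, highest, at 0.46 (SE 0.40). Gja5, the connexin gene of atria and conduction fibres, stood at 13.6 ± 1.82 CPM with vehicle and 14.7 ± 5.33 CPM with doxorubicin (SD, n = 3). Gjc1, a connexin gene of the nodes, was 24.2 ± 3.12 and 19.0 ± 2.76 CPM, with groups that did not overlap. Conduction system markers as a whole summed to 89.5 to 125 CPM with vehicle and 83.6 to 115 CPM with doxorubicin.

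Of the other desmosome genes 5 of 14 were tested and 0 passed in edgeR, while 2 had an unadjusted p under 0.05, both higher. With so few tested this was 40%, beside 8.1% of all tested symbols. Ppl encodes periplakin, a plakin relative of desmoplakin, and had 5, 6 and 19 counts with vehicle against 47, 25 and 41 counts with doxorubicin. Its log2 fold change was 1.74 (SE 0.45, edgeR adjusted p 0.190), and it ran from 1.47 without control library 1 to 2.34 without control library 3. Perp, a desmosome-associated membrane protein gene and a p53 target, was 109 ± 9.88 CPM with vehicle and 171 ± 17.7 CPM with doxorubicin (SD, n = 3). The corresponding log2 fold change was 0.64 (SE 0.18, edgeR adjusted p 0.244). Neither gene overlapped between the groups, and epithelial keratin genes that accompany them in other tissues were at the detectable limit, with at most 4 counts of Krt8 and 1 of Krt18 per library. The log2 fold change was -0.20 (SE 0.19) for desmin (Des) and -0.22 (SE 0.19) for Clstn1, a calsyntenin gene and the lowest of this list.

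Of the other adherens junction genes 19 of 28 were tested, 0 passed in edgeR and 2 had an unadjusted p under 0.05, both higher. That is 10.5% of the tested genes of this list, beside 8.1% of all tested symbols. Enah, an actin-elongating protein gene related to Vasp, had 40.9, 59.5 and 48.6 CPM with vehicle against 149.6, 77.7 and 103 CPM with doxorubicin. Its log2 fold change was 1.15 (SE 0.25) with an edgeR adjusted p of 0.125, and it passed in 3 of the 19 alternatives: DESeq2 and edgeR without the filter on low counts, and edgeR without doxorubicin library 2. Sorbs2, an adaptor gene of Z-discs and discs, was 336 ± 53.1 CPM with vehicle and 587 ± 91.3 CPM with doxorubicin (SD, n = 3), with a log2 fold change of 0.80 (SE 0.19, edgeR adjusted p 0.158). It passed in 2 alternatives, DESeq2 and edgeR without the filter. For the catenins that bind N-cadherin the log2 fold changes were 0.02 (SE 0.18) for Ctnna1, -0.02 (SE 0.18) for Ctnnb1 and 0.03 (SE 0.17) for Ctnnd1. As a ratio, Cdh2 per 100 Ctnna1 counts was 52.2, 62.8 and 68.3 with vehicle against 77.0, 83.4 and 95.9 with doxorubicin, without overlap. Nectin3, an adhesion receptor gene, was lowest, at -0.64 (SE 0.41), on 9 to 24 counts.

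Among 27 tested scaffold and channel partners of the disc (of 38 listed) 1 passed, downward, and 7 had an unadjusted p under 0.05 (4 higher and 3 lower), which is 25.9% beside 8.1% of all tested symbols. As for the other lists, nothing is read from that share. The gene that passed was Scn4b, which encodes an auxiliary beta subunit of sodium channels and fell from 195, 189 and 181 CPM with vehicle to 97.9, 59.0 and 79.3 CPM with doxorubicin, a log2 fold change of -1.26 (SE 0.20, edgeR adjusted p 0.0440). It lost the call in each of the 6 fits that left out a library, with log2 fold changes of -1.44 to -1.08, and passed in 9 of all 19 alternatives. Xirp2, an actin-binding disc protein gene, was highest: it had 148, 368 and 341 CPM with vehicle against 719, 418 and 471 CPM with doxorubicin (log2 fold change 0.91, SE 0.30, edgeR adjusted p 0.404). Without control library 1 that became 0.60. Flnc, the filamin gene of striated muscle, was 395 ± 2.81 CPM with vehicle and 606 ± 159 CPM with doxorubicin (SD, n = 3), with an edgeR adjusted p of 0.383 and log2 fold changes of 0.39 to 0.76 in the fits leaving out a library. The other decreases at an unadjusted p under 0.05 were Lrrc10, a gene of a cardiac leucine-rich repeat protein, at -0.49 (SE 0.21, edgeR adjusted p 0.558), and Fhl2, a LIM-domain adaptor gene, at -0.44 (SE 0.20, edgeR adjusted p 0.594). Without control library 1 they stood at -0.34 and -0.26. The other increases were Dstn, the gene of the actin-severing protein destrin, at 0.42 (SE 0.19), and Ezr, the gene of the membrane linker ezrin, at 0.46 (SE 0.19). Mapre1, a microtubule tip protein gene that guides connexin delivery to the disc, differed by a log2 fold change of 0.03 (SE 0.18).

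Of genes for Ncam1 partners and its polysialylation 14 of 21 were tested and 0 passed in edgeR, with 0 at an unadjusted p under 0.05. Prkca, a protein kinase C gene, was highest at 0.53 (SE 0.32) and Gfra2, a co-receptor gene for neurturin, lowest at -0.51 (SE 0.38), which became 0.01 without control library 2. For the signalling partners Fgfr1 and Fyn the log2 fold changes were 0.07 (SE 0.19) and -0.03 (SE 0.17). The polysialyltransferase gene St8sia2, active on Ncam1 in development, had 0 counts in all 6 libraries, which allows up to 3 counts in each. Its relative St8sia4 had 3 to 9 counts in control and 5 in each doxorubicin library.

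Of the other immunoglobulin-type adhesion genes 16 of 40 were tested and 0 passed in edgeR, with 2 at an unadjusted p under 0.05, both higher. These made up 12.5% of the tested genes here, beside 8.1% of all tested symbols. Vcam1, the leukocyte adhesion receptor gene of activated endothelium, was highest, at 0.80 (SE 0.37, edgeR adjusted p 0.615), and Icam1, another such receptor gene, was 11.9 ± 1.65 CPM with vehicle and 19.5 ± 3.41 CPM with doxorubicin (SD, n = 3). Igsf8 was lowest, at -0.88 (SE 0.47), and at -1.58 without doxorubicin library 2, which had 26 counts against 8 and 10 in the other doxorubicin libraries. The nearest relative of Ncam1, Ncam2, had at most 2 counts in any library.

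**Figure D5:**
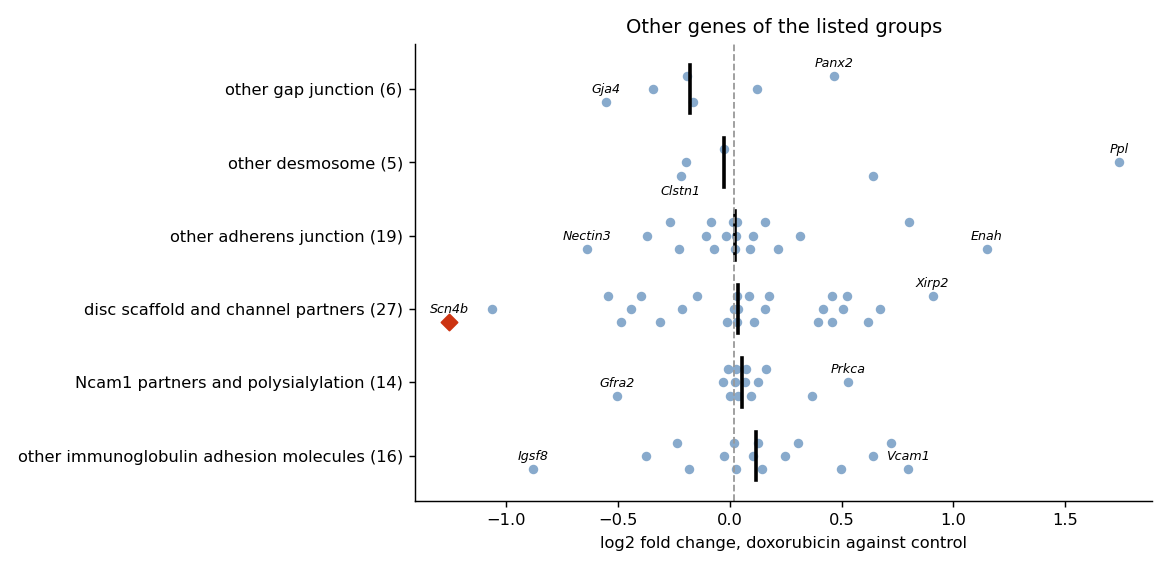
Log2 fold change, doxorubicin against control, of each tested gene in the 6 lists, with the number tested in brackets. Thick black lines give each list's median, the dashed line the median of all tested symbols (0.02), and the red diamond the gene past the adjusted threshold, Scn4b. The lowest and highest gene of each list are named.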

How the data were processed

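mRNA libraries of 6 rat hearts were sequenced on an Illumina instrument, per the labels' protocols. The authors deposited raw read counts in rows that carry a gene name, with no normalization. The submitters' processing notes name FastQC, Trimmomatic, STAR, HTSeq and the build mRatBN7.2; the counting mode, strand use and annotation are not given in the sources used here, so reads shared with overlapping or antisense genes cannot be separated. Any row without a gene name was left out, and rows of a symbol were summed (599 symbols stood on several rows).

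The 10 members and all lists were chosen with earlier results of these data known. Doxorubicin was compared with control by edgeR 4.0.16 in R 4.3.3 (quasi-likelihood F test, robust, TMM, filterByExpr with minimum count 10 and minimum total 15), with Benjamini-Hochberg adjustment over 9205 symbols and a threshold of 0.05. The SE is the absolute log2 fold change divided by the square root of F; log2 CPM used a prior count of 2. Named genes were the members, each list's called genes and its highest and lowest gene with a mean of at least 5 CPM, and the 5 profiles nearest to Ncam1; any other gene was chosen after its values were seen. DESeq2 1.42.0, limma 3.58.1 voom and 17 other settings were alternatives. The gene span trend used gene spans from RefSeq's GRCr8. P-values set the difference between the groups against the spread between animals within a group (3 per group), with dispersion estimates that draw on all tested genes. The edgeR script was tested on simulated data. Figures used matplotlib 3.10.9. Some genes of the lists are not reported here.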

Additional observations from a re-analysis of the deposited data

How the results depend on the processing

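Each of the 19 alternatives was planned, and each was run. Against 5 genes past the adjusted threshold in edgeR, scaling by library size alone gave 0 (713 at an unadjusted p under 0.05), no filter 61, a floor of 5 on the mean CPM 1, dispersion fitted without the robust option 1, the gene span trend removed 9, DESeq2 74 and limma voom 0 (740 unadjusted); the fits leaving out a library gave 0 to 35, with 35 without doxorubicin library 2 and 0 (531 to 636 unadjusted) without control library 1 or 3 or doxorubicin library 1 or 3. With the replicate block 13 genes passed, and 22 with the gene span trend removed as well. The replicate numbers come from the titles and mark different animals: same-numbered libraries deviated from their group means with correlations of 0.0211, -0.185 and -0.0559, and 1 of 6 libraries correlated best with its own number. The block changed the call of 0 of the 6 junction genes.

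Of the junction genes 0 passed under any alternative. Nothing is read from the count over all 7, which can add only Ncam1, a gene selected on these libraries: it was 0, and 1 with median-of-ratios factors, no filter, a mean CPM of at least 1, the gene span trend removed with or without the replicate block, and DESeq2, where 0.0652% to 0.567% of all symbols passed, and 0 to 1 in the fits leaving out a library. In the other lists, against 1 gene, 0 passed with size scaling alone, the floor of 5 CPM, the non-robust dispersion and voom, 4 with no filter, 3 with DESeq2, and 0 to 1 in the fits leaving out a library. The 4 with no filter were Scn4b, Enah, Sorbs2 and Scn3b, another sodium channel beta subunit gene. Scn3b did not pass the filter on low counts, and without it the log2 fold change was 2.7 (edgeR adjusted p 0.0258). The median log2 fold change of all lists, 0.03, became 0.12 when libraries were scaled by size alone, where all symbols had a median of 0.10 in place of 0.02. It became -0.03 with the gene span trend removed and -0.05 with the replicate block added, where the median of all symbols was -0.01, and ran from 0.03 to 0.07 in the fits leaving out a library. Leaving out a library moved Dsc2 from -0.08 to 0.52, Tjp1 from -0.10 to 0.39 and Gfra2 from -0.72 to 0.01; the sign reversed without control library 1 for the first pair and without control library 2 for Gfra2. Of the named list genes, Panx2 (0.46) became 0.21, 0.19 and 0.71 without control library 2, doxorubicin library 1 and doxorubicin library 2, Gja4 (-0.55) became -0.97 and -0.31 without doxorubicin libraries 1 and 3, Clstn1 (-0.22) became -0.09 and -0.10 without control and doxorubicin library 1, Nectin3 (-0.64) became -0.40 without doxorubicin library 2, and Prkca (0.53) became 0.80 and 0.28 without control library 2 and doxorubicin library 3. Of the other members, Gja1, Pkp2, Cdh2, Jup and Ncam1 kept their direction in all 19. The cause of these changes was not tested.

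Depth limits genes such as Ncam1, Dsc2 and Ppl, whose values rest on few counts (5 to 105 per library).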
